A study of Mus musculus with 42 samples.

Results

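The liver balances glucose production against glucose use at a small set of enzyme steps, and 9 genes of these steps are described here: Pck1, G6pc, Fbp1 and Pcx for gluconeogenesis, Slc2a2, Gckr and Hk2 for glucose uptake and phosphorylation, and Pklr and Pkm for the last step of glycolysis. They were taken by name from the 54446 genes of the count table, with earlier results of these data known. All 9 symbols matched 1 gene identifier each. The study asked how atorvastatin affects diet-induced steatohepatitis in mice. All animals were female and carried the human APOE*3-Leiden transgene, which slows the clearance of lipoprotein remnants and gives the mouse a human-like lipid profile, so that no group lacked it. The chow-fed group of 10 mice stayed on a maintenance diet. A group of 16 mice, 8 to 14 weeks old when the diet began, received a Western-type diet (WTD) with 15% cocoa butter, 40.5% sucrose and 1% cholesterol. After a run-in of 3 weeks it was followed for 32 weeks, with 0.05% sodium cholate in the food from week 22. A further group of 16 mice, of the same age range, received this WTD with atorvastatin, an inhibitor of HMG-CoA reductase, at 3.0 mg/kg/day and from week 5 at 4.5 mg/kg/day. The age of the chow-fed mice, the promoter of the transgene, and the time of day and hours without food before sacrifice are not given in the sources used here.

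In gluconeogenesis, pyruvate is carboxylated by Pcx in the mitochondrion, Pck1 turns oxaloacetate into phosphoenolpyruvate, Fbp1 removes a phosphate from fructose 1,6-bisphosphate, and G6pc releases free glucose in the endoplasmic reticulum. Glucose enters and leaves the hepatocyte through the transporter GLUT2 (Slc2a2) and is then phosphorylated, a step that the regulatory protein Gckr restrains in the fasting state, while the low-Km hexokinase Hk2 belongs mainly to muscle, fat and activated cells. Pyruvate kinase ends glycolysis, as the L and R forms of Pklr in hepatocytes and red cell precursors and as the M1 and M2 forms of Pkm in most other cells. Glucagon and fasting induce Pck1 and G6pc, insulin represses them, and sugar induces Pklr through the transcription factor ChREBP (Mlxipl).

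The genes lie on 8 chromosomes of the mouse genome GRCm38. Pck1 is at chr2:173153048-173159273 and G6pc at chr11:101367561-101377903, both on the plus strand. Fbp1 (chr13:62864753-62888282) and Hk2 (chr6:82725025-82774454) are on the minus strand. The other 5 are on the plus strand, with Pcx at chr19:4510472-4621752, Gckr at chr5:31297443-31327314, Pklr at chr3:89136142-89146784, Slc2a2 at chr3:28697903-28731359 and Pkm at chr9:59656368-59679375. Exons of Pklr overlap those of Hcn3 on the opposite strand, and exons of Pkm overlap the provisional transcript Gm49759 on the same strand. Counts per gene do not separate the L from the R form of Pklr, or M1 from M2 of Pkm.

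The stretches before the start of Pck1, G6pc and the liver form of Pklr are shown because these promoters carry the best known hormone and sugar elements of the pathway. Sequences are from RefSeq on GRCm38.p6, plus strand, 5′ to 3′, and end before the first exon that GENCODE annotates there. They lie at chr2:173152823-173153047, chr11:101367466-101367560 and chr3:89136373-89136571. Capitals mark a cAMP response element variant in Pck1, an insulin response sequence in G6pc and a carbohydrate response element in Pklr.
Pck1: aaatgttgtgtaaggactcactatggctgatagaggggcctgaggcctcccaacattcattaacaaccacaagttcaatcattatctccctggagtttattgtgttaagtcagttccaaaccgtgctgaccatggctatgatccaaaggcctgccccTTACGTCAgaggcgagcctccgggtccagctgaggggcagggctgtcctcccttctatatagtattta
G6pc: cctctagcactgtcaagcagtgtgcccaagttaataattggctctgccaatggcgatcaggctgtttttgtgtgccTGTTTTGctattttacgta
Pklr: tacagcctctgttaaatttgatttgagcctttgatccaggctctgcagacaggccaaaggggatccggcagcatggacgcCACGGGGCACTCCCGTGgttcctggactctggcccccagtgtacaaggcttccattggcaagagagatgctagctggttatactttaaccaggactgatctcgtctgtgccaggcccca

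Counted back from RefSeq's start, the element of Pck1 (TTACGTCA) spans bases -93 to -86, that of G6pc (TGTTTTG) -174 to -168 and that of Pklr -170 to -154. The carbohydrate response element was searched as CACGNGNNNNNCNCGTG, a pair of E box-like motifs 5 bases apart, which a complete E box (CACGTG) may overlap. Among 32851 promoters of 250 bases, searched on both strands, 13 held it (0.0396%), while 147 (0.447%) held TTACGTCA and 1827 (5.56%) held TGTTTTG. Among the 12 promoters of the 9 genes, TGTTTTG was found also in that of Gckr, at -83 to -77, and CACGTG in the upstream promoter of Pcx, at -248 to -243 (6.02% of all promoters). These matches are letters in a window, not measured binding.

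Gene counts totalled 15661381 to 36224054 in single libraries, with medians of 20405093.5, 21095129 and 18180048.5 for chow, WTD and WTD with atorvastatin. Levels are given as CPM, the usual depth-scaled count, with library sizes adjusted by TMM. The tissue read as liver, with 9 hepatocyte markers summing to between 55052 and 164910 CPM in every mouse. A library from a chow-fed mouse (Chow 1) stood apart, since 5 skeletal muscle markers summed to 2709 CPM in it and to at most 3.23 CPM in the other 41 libraries. Acta1, the actin of skeletal muscle, reached 819.8 CPM there, and the muscle form of phosphoglycerate mutase (Pgam2) 23.2 CPM. Muscle expresses Pkm and Hk2, and their comparisons with chow are therefore given with and without Chow 1. By the correlation of log2 CPM with the median profile of each group, 5 libraries lay closer to another group than to their own. These were WTD 3, 14 and 15, closer to the atorvastatin-treated group, and WTD+atorvastatin 1 and 7, closer to the WTD-fed group. In 8 libraries (3 chow, 4 WTD, 1 with atorvastatin) over 20% of the weakly expressed genes had no count, which touches Hk2 most among the 9 genes. All 9 genes passed the filter on low counts, and the lowest counts in any mouse were 318 for Pkm, 0 for Hk2 and at least 1544 for the other 7 genes.

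Compared to chow, WTD changed 7 of the 9 genes. Pklr, Pkm and Hk2 were higher, and Pck1, G6pc, Fbp1 and Gckr were lower, at a Benjamini-Hochberg adjusted p under 0.01 in edgeR's quasi-likelihood test of 15574 genes. Of all tested genes, 17.5% were called higher and 16% lower in this comparison. With atorvastatin compared to WTD alone, 5 of the 9 were called, with Fbp1, Gckr, Pklr and Slc2a2 higher (background 4.84%) and Pkm lower (background 2.26%). Between atorvastatin-treated and chow-fed mice, Pcx, Pklr and Pkm were higher (background 14.2%) and 0 genes were lower by edgeR and by DESeq2 (background 10.7%), while 3 were lower at an unadjusted edgeR p under 0.05. The median log2 fold change of the 9 genes was -0.08, 0.33 and 0.29 in the 3 comparisons, beside 0.03, 0.00157 and 0.04 over all tested genes. Over all genes called with atorvastatin against WTD, 68.2% were higher, but 54.9% with RLE normalization and 50.9% by DESeq2. The comparisons share their WTD-fed or chow-fed mice, so that they are not independent of each other.

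**Figure D1:**
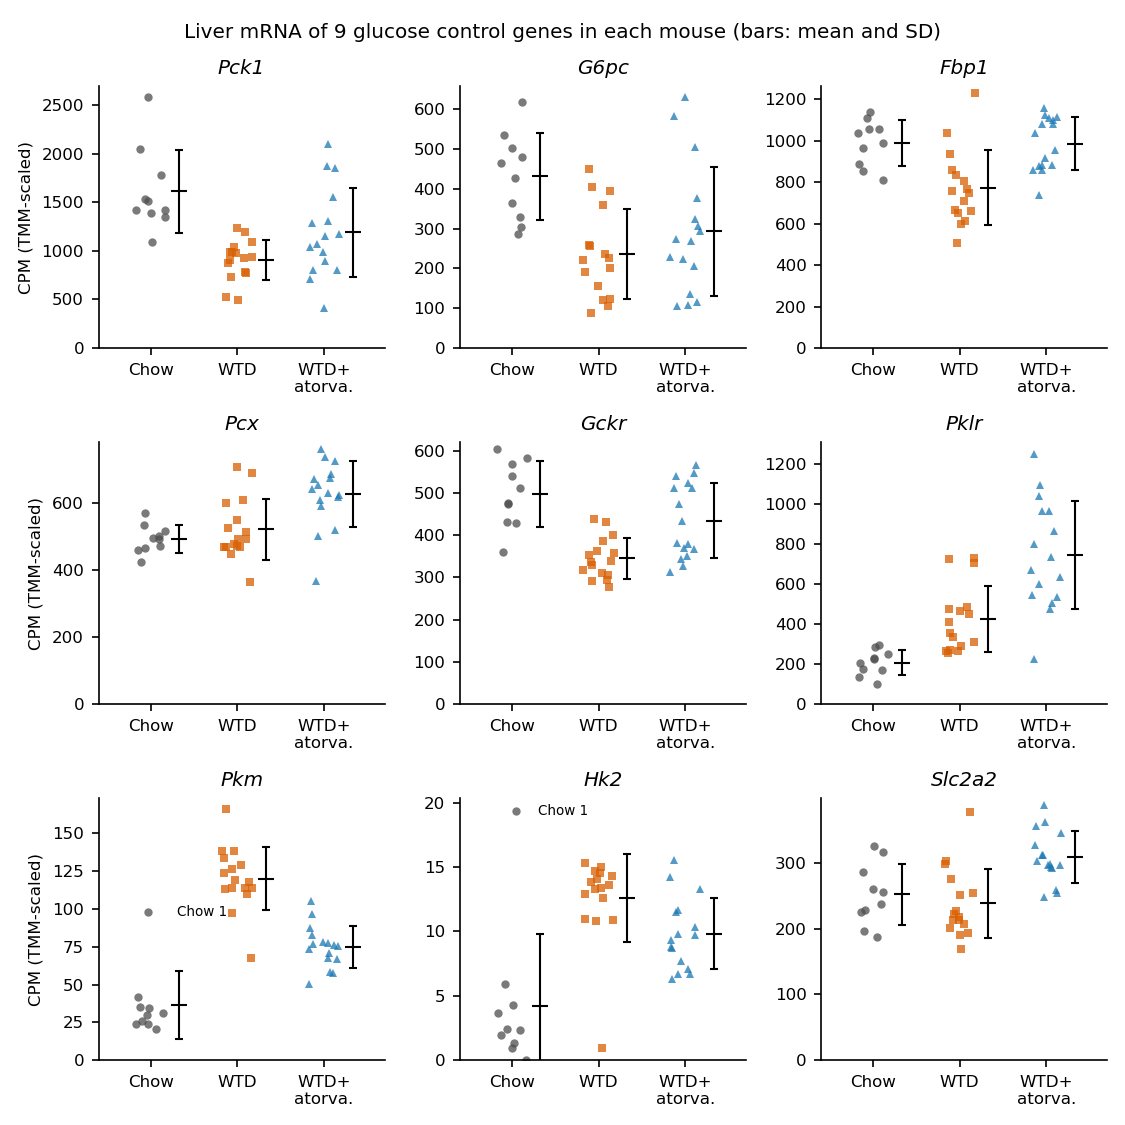
Each panel plots the level of 1 gene in CPM (linear axis from 0) in each of 42 mice, with chow-fed, WTD-fed and atorvastatin-treated mice as circles, squares and triangles and the mean and SD as bars; the lower arm of Hk2 on chow is cut at 0. Pkm is at 20.3 to 41.9 CPM in 9 chow-fed mice, at 98.2 CPM in Chow 1 and at 67.6 to 165.9 CPM in WTD-fed mice, while Pcx and Slc2a2 overlap widely between chow and WTD.

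Pcx, pyruvate carboxylase, supplies oxaloacetate for gluconeogenesis and for lipid synthesis. Pcx ranged from 425 to 569 CPM on chow (median 494), from 363 to 708 CPM on WTD (median 493) and from 369 to 763 CPM with atorvastatin (median 636). The medians of the chow-fed and WTD-fed mice were alike, and the ranges of all groups overlapped. The log2 fold change on WTD was 0.08 (SE 0.09, edgeR adjusted p = 0.483), with a 95% interval from -0.10 to 0.26. With atorvastatin compared to WTD it was 0.26 (SE 0.08, edgeR adjusted p = 0.0161), which did not pass the threshold, although 15 of 16 treated mice lay above the WTD median. With all libraries limma-voom called it (0.32, adjusted p = 3.65e-05). In edgeR the call was gained when any of WTD 4 and 15 or WTD+atorvastatin 1 and 7 was left out (adjusted p between 0.00176 and 0.00863). Against chow, Pcx was higher in treated mice, 1.27-fold (log2 fold change 0.34, SE 0.09, edgeR adjusted p = 0.00179), with 13 of 16 treated mice above every chow-fed mouse. It was not called without the 8 libraries that missed weakly expressed genes (log2 fold change 0.34, edgeR adjusted p = 0.0114) or with a clock gene score added as covariate (0.30, adjusted p = 0.0166).

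Pck1 encodes the cytosolic phosphoenolpyruvate carboxykinase. It ranged from 1091 to 2589 CPM on chow, with a median of 1468 CPM, and from 498 to 1238 CPM on WTD, with a median of 933 CPM. All 16 WTD-fed mice lay below the chow median, and 14 of them lay below every chow-fed mouse. Pck1 fell by 0.84 on the log2 scale on WTD (SE 0.18, edgeR adjusted p = 0.000126), which is 1.78-fold. With atorvastatin the range was the widest of the 3 groups, from 416 to 2099.7 CPM, with a median of 1116 CPM. Of 16 treated mice, 6 lay above every untreated WTD-fed mouse and 1 below every one. The log2 fold change against WTD was 0.40 (SE 0.16, 95% interval 0.08 to 0.71), which did not pass the threshold (edgeR adjusted p = 0.0935). Against chow it was -0.44 (SE 0.18, edgeR adjusted p = 0.0491), also not called.

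Fbp1, fructose-1,6-bisphosphatase, had the highest level per length of exon of the 9 genes in each group, at 581 ± 64.4 CPM per kb on chow (SD, n = 10), 454 ± 106 on WTD (n = 16) and 579 ± 75.1 with atorvastatin (n = 16). Pck1 came next in each group. Their means differed by less than the SD of Pck1 on chow. In CPM, Fbp1 ranged from 811 to 1139 on chow (median 1011), from 507 to 1227 on WTD (median 751) and from 738 to 1157 with atorvastatin (median 996). On WTD 11 of 16 mice lay below every chow-fed mouse, but WTD 15 had the highest level of all 42 mice. Fbp1 fell by 0.36 on the log2 scale on WTD (SE 0.10, edgeR adjusted p = 0.00173). It was higher by 0.35 with atorvastatin than on WTD (SE 0.08, edgeR adjusted p = 0.00271), and 15 of 16 treated mice exceeded the WTD median. Treated and chow-fed mice differed by -0.01 with a 95% interval from -0.20 to 0.19 (edgeR adjusted p = 0.973). Without the 8 libraries that missed weakly expressed genes, the log2 fold changes were -0.30 on WTD and 0.30 with atorvastatin, and neither was called (edgeR adjusted p = 0.0329 and 0.0353).

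G6pc encodes the catalytic subunit of glucose-6-phosphatase. It varied more than Fbp1 between mice fed alike, with a coefficient of variation of 25.1% on chow, 47.7% on WTD and 55.5% with atorvastatin, where that of Fbp1 was 11.1%, 23.3% and 13.0%. The range was 287 to 617 CPM on chow (median 446), 87.6 to 451 CPM on WTD (median 224) and 105 to 631 CPM with atorvastatin (median 271). All groups overlapped, but 12 of 16 WTD-fed mice lay below every chow-fed mouse. G6pc fell by 0.86 on the log2 scale on WTD (SE 0.27, edgeR adjusted p = 0.00889), or 1.82-fold. The call was close to the threshold and was lost in edgeR without any of 20 of the 42 libraries, with an adjusted p between 0.01001 and 0.0211. These were Chow 1, 2, 3, 5, 7 and 8, WTD 1, 2, 4, 5, 7, 8, 9, 10, 12, 13, 15 and 16, and WTD+atorvastatin 10 and 16. With all libraries it was lost with limma-voom (adjusted p = 0.0275) and in edgeR with RLE normalization (adjusted p = 0.0116), without the filter on low counts (adjusted p = 0.0130) and with at least 10 counts in every mouse (adjusted p = 0.0106), at log2 fold changes between -0.85 and -0.82. Without the 8 libraries that missed weakly expressed genes the log2 fold change was -0.65 (edgeR adjusted p = 0.101). With atorvastatin it was 0.30 against WTD (SE 0.24, edgeR adjusted p = 0.503), with a 95% interval from -0.19 to 0.79.

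G6pc and Pck1 also follow the time of day in liver, and the hour of sacrifice is not given. A clock score was defined as the mean z-score of Nr1d1, Nr1d2, Dbp, Tef, Per3 and Ciart minus that of Arntl, Npas2 and Clock. Of these 9 genes, only the 8 that passed the filter on low counts entered it. The score was -1.17 ± 1.41 on chow (SD, n = 10), 0.0279 ± 1.5003 on WTD (n = 16) and 0.706 ± 1.39 with atorvastatin (n = 16). With this score as a covariate, the log2 fold change of G6pc on WTD was -0.59 (edgeR adjusted p = 0.0612). That of Pck1 kept its call. The part of the clock in these differences was not tested beyond this fit.

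**Figure D2:**
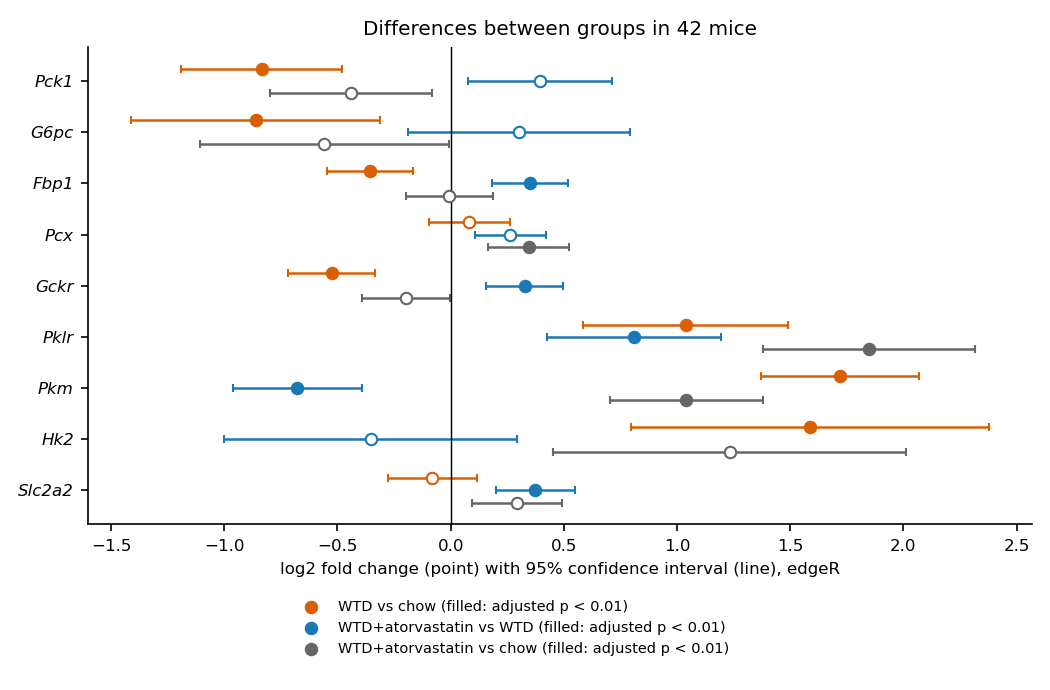
Points are log2 fold changes of the 9 genes in the 3 comparisons and lines their 95% confidence intervals, with filled points for an edgeR adjusted p under 0.01. Pklr is to the right of 0 in all 3 comparisons, while Pkm is at 1.72 on WTD and at -0.68 with atorvastatin against WTD.

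Slc2a2 encodes GLUT2, the main glucose transporter of hepatocytes. On chow it ranged from 187 to 325 CPM (median 246), on WTD from 169.6 to 377 CPM (median 219.6), and with atorvastatin from 247 to 388 CPM (median 301). The groups overlapped, and WTD 15 again had the highest value of its group. Slc2a2 did not pass the threshold on WTD (log2 fold change -0.08, SE 0.10, 95% interval -0.28 to 0.12, edgeR adjusted p = 0.538). With atorvastatin it was 1.30-fold higher than on WTD (log2 fold change 0.37, SE 0.09, edgeR adjusted p = 0.00184), and all 16 treated mice exceeded the WTD median. Against chow the log2 fold change was 0.29 (SE 0.10, edgeR adjusted p = 0.0168), not called. With all libraries it was called by limma-voom (0.36, adjusted p = 0.000744) and by edgeR with at least 10 counts in every mouse (0.31, adjusted p = 0.00718). In edgeR it was also called when any of Chow 4, Chow 10 or WTD 15 was left out (edgeR adjusted p between 0.00630 and 0.00773).

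Gckr encodes a regulatory protein that restrains glucose phosphorylation in the hepatocyte. The range of Gckr was 359 to 605 CPM on chow (median 494), 276 to 438 CPM on WTD (median 338) and 314 to 566 CPM with atorvastatin (median 408). All 16 WTD-fed mice were below the chow median, and 11 of them below every chow-fed mouse. Gckr fell by 0.53 on the log2 scale on WTD (SE 0.10, edgeR adjusted p = 8.16e-06). With atorvastatin it was 1.26-fold higher than on WTD (log2 fold change 0.33, SE 0.08, edgeR adjusted p = 0.00530), and 7 of 16 treated mice exceeded every untreated WTD-fed mouse. This second call was lost in edgeR without any of 9 libraries, WTD 8, 11 and 16 and WTD+atorvastatin 5, 6, 9, 10, 11 and 12 (adjusted p between 0.01001 and 0.0129). It was also lost with RLE normalization (0.29, adjusted p = 0.0134) and without the 8 libraries that missed weakly expressed genes (0.29, adjusted p = 0.0401).

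Hk2 encodes hexokinase II and was the least abundant of the 9 genes. On chow it ranged from 0 to 19.3 CPM (median 2.38), on WTD from 0.938 to 15.3 CPM (median 13.5) and with atorvastatin from 6.33 to 15.6 CPM (median 9.53). The highest chow value was that of Chow 1, the library with muscle mRNA, and the other 9 chow-fed mice had at most 5.88 CPM. The count of 0 was in Chow 2, where 59.0% of the weakly expressed genes had no count and where 3 counts would be 0.192 CPM. The low WTD value was that of WTD 9, also a library with many weak genes missing. Hk2 was higher on WTD, 3.00-fold with Chow 1 (log2 fold change 1.59, SE 0.39, edgeR adjusted p = 0.000855) and 4.99-fold without it (log2 fold change 2.32, adjusted p = 1.61e-07). Without Chow 1, 15 of 16 WTD-fed mice exceeded every chow-fed mouse. With atorvastatin against WTD the log2 fold change was -0.35 (SE 0.32, edgeR adjusted p = 0.569), with a 95% interval from -0.9997 to 0.29. Against chow it was 1.23 (SE 0.39, edgeR adjusted p = 0.0106), not called. With all libraries it was called by DESeq2 (1.58, adjusted p = 5.60e-06), by limma-voom (1.93, adjusted p = 1.88e-05), and by edgeR without robust estimation (adjusted p = 0.00793) or with the clock gene score as covariate (1.65, adjusted p = 0.00298). In edgeR it was also called without Chow 1 (1.97, adjusted p = 5.82e-06), without WTD 9 (adjusted p = 0.00426) or without WTD+atorvastatin 9 (adjusted p = 0.00999).

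The related genes Hk1 and Hk3 give the scale of Hk2, whose mean was 2.11 CPM per kb on WTD, beside 1.89 for Hk1 and 10.4 for Hk3. Hk3, a hexokinase of myeloid cells, was higher on WTD by 1.98 on the log2 scale (SE 0.19, edgeR adjusted p = 1.81e-12). Hk1, the widely expressed form, was higher by 0.97 (SE 0.19, edgeR adjusted p = 4.03e-05). With atorvastatin the differences from WTD were -0.10 for Hk3 and -0.14 for Hk1, neither of them called (edgeR adjusted p = 0.763 and 0.680).

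Pklr, the pyruvate kinase of hepatocytes, was the only gene of the 9 that edgeR called higher in both WTD against chow and atorvastatin against WTD. It ranged from 98.8 to 295 CPM on chow (median 215), from 256 to 729 CPM on WTD (median 383) and from 226 to 1250.5 CPM with atorvastatin (median 702). All 16 WTD-fed mice exceeded the chow median, and 11 of them exceeded every chow-fed mouse. The mean of 743 ± 271 CPM in treated mice (SD, n = 16) stood beside 424 ± 167 on WTD (n = 16) and 207 ± 63.0 on chow (n = 10). On WTD Pklr was 2.05-fold higher (log2 fold change 1.04, SE 0.22, edgeR adjusted p = 0.000179). With atorvastatin it was 1.75-fold higher than on WTD (log2 fold change 0.81, SE 0.19, edgeR adjusted p = 0.00269), and 8 of 16 treated mice exceeded every untreated WTD-fed mouse. The lowest treated mouse, WTD+atorvastatin 7, was below every WTD-fed mouse. Against chow the treated mice were 3.60-fold higher (log2 fold change 1.85, SE 0.23, edgeR adjusted p = 2.68e-08). Without the 8 libraries that missed weakly expressed genes the call against WTD was lost (log2 fold change 0.66, edgeR adjusted p = 0.0313). Pklr is also expressed in red cell precursors, whose 7 markers summed to a median of 227 CPM on chow, 392 on WTD and 457 with atorvastatin. Of these 7, edgeR called Hbb-bs, Hbb-bt, Hba-a1 and Hba-a2 higher and Klf1 lower on WTD. It called 0 of them with atorvastatin against WTD. The part of red cell precursors in the values of Pklr was not tested.

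Pkm had the smallest p of the 9 genes on WTD. It ranged from 20.3 to 98.2 CPM on chow (median 30.6), from 67.6 to 165.9 CPM on WTD (median 119) and from 50.5 to 105 CPM with atorvastatin (median 75.7). Without Chow 1 the chow mean was 29.7 ± 6.79 CPM (SD, n = 9), and all 16 WTD-fed and all 16 treated mice exceeded the highest of these 9 mice, at 41.9 CPM. On WTD Pkm was 3.29-fold higher with Chow 1 (log2 fold change 1.72, SE 0.17, edgeR adjusted p = 2.79e-11) and 4.05-fold higher without it (log2 fold change 2.02, adjusted p = 2.31e-19). With atorvastatin Pkm fell by 0.68 on the log2 scale against WTD (SE 0.14, edgeR adjusted p = 0.000748), or 1.60-fold, and all 16 treated mice were below the WTD median. It was still 2.06-fold higher than on chow (log2 fold change 1.04, SE 0.17, edgeR adjusted p = 2.66e-06), or 2.53-fold without Chow 1. The lowest WTD value, 67.6 CPM, was that of WTD 15.

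**Figure D3:**
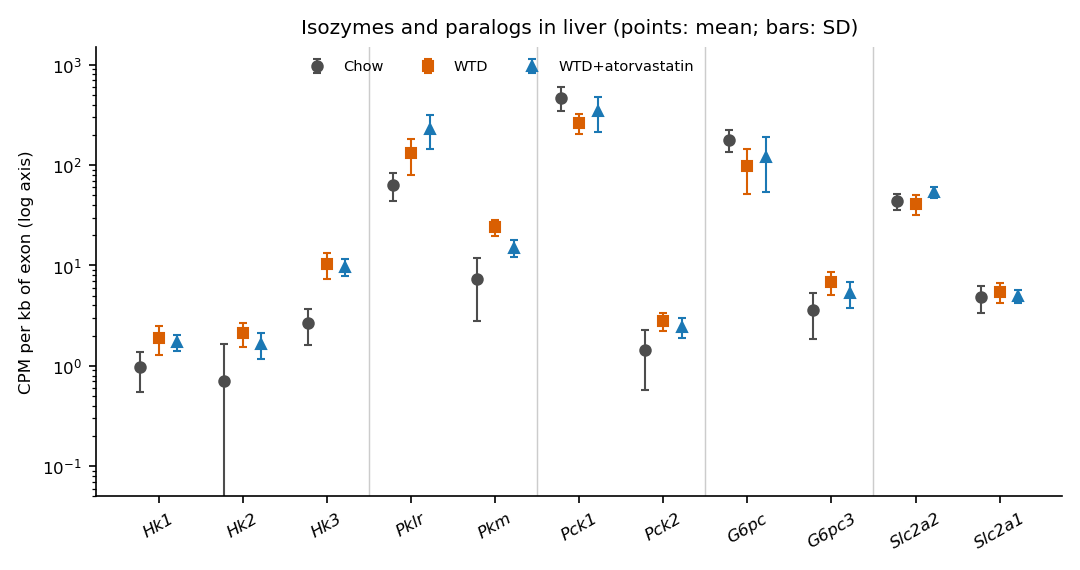
Points are mean levels in CPM per kb of exon (log axis) of isozymes and paralogs in the 3 groups and bars are SDs; the lower bar of Hk2 on chow runs off the axis because the SD exceeds the mean. Pklr exceeds Pkm, Pck1 exceeds Pck2 and G6pc exceeds G6pc3 in each group, and the mean of Pkm on WTD is 24.0 CPM per kb.

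Pyruvate kinase mRNA was mostly Pklr in each group. The share of Pkm in the sum of Pkm and Pklr, in CPM per kb, was 10.9% ± 6.45 on chow (SD, n = 10), 17.2% ± 6.32 on WTD (n = 16) and 7.14% ± 3.70 with atorvastatin (n = 16). In single mice it ranged from 5.04% to 23.6% on chow, from 5.66% to 28.9% on WTD and from 3.85% to 17.4% with atorvastatin, so that all groups overlapped. The chow values of this share include Chow 1, the library with muscle mRNA, which had the highest chow share. The ratio of Pck1 to Pklr in CPM per kb, opposed steps at phosphoenolpyruvate, was 8.32 ± 3.91 on chow, 2.29 ± 1.03 on WTD and 1.90 ± 1.38 with atorvastatin. Its chow range of 3.49 to 14.4 overlapped with the WTD range of 1.25 to 4.45.

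Markers of macrophages and many of stellate cells and fibroblasts were higher on WTD, as were Pkm and Hk2. Most macrophage markers were lower with atorvastatin, as was Pkm, while Hk2 was not called there. Other cell types differed. On WTD 6 of 6 cholangiocyte markers were higher, but edgeR called 0 of 6 T cell markers (DESeq2 1 higher) and 0 of 4 B cell markers. Of 7 sinusoidal endothelium markers, 2 were higher and 3 lower. Of 5 Kupffer cell markers, 2 were higher and 0 lower on WTD, and with atorvastatin Clec4f was higher and Cd5l lower. Of 4 tested neutrophil markers, 3 were higher on WTD. With atorvastatin edgeR and DESeq2 called 0 of these 4, with 1 lower at an unadjusted edgeR p under 0.05. Of all tested genes 17.5% were higher and 16% lower on WTD, and 4.84% and 2.26% with atorvastatin against WTD. Of 9 tested macrophage markers all 9 were higher on WTD, with a median log2 fold change of 2.99, and atorvastatin lowered 6 of them against WTD (median -0.70). Their summed level was 228 to 330.1 CPM on chow, 1231 to 3242 CPM on WTD and 986 to 2261 CPM with atorvastatin. The lowest WTD sum was that of WTD 15, and Itgam, another marker, had no count in any mouse. Whether this lack of counts reflects the tissue or the counting of reads was not tested. Of 10 markers of stellate cells and fibroblasts, 6 were higher on WTD, and with atorvastatin 4 were lower and 1 was higher. The hepatocyte markers moved the opposite way, with 9 of 9 lower on WTD (median log2 fold change -0.78) and 6 of 9 higher with atorvastatin (median 0.41). These values stand beside the lower levels of Pck1, G6pc, Fbp1 and Gckr on WTD. Other genes of the 9 that hepatocytes express did not fall alike. Pklr was higher on WTD (log2 fold change 1.04), and Pcx and Slc2a2 were not called (0.08 and -0.08). In whole liver, fewer cells of a type and less RNA per cell cannot be told apart. The part of cell composition in the changes of the 9 genes was not tested.

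**Figure D4:**
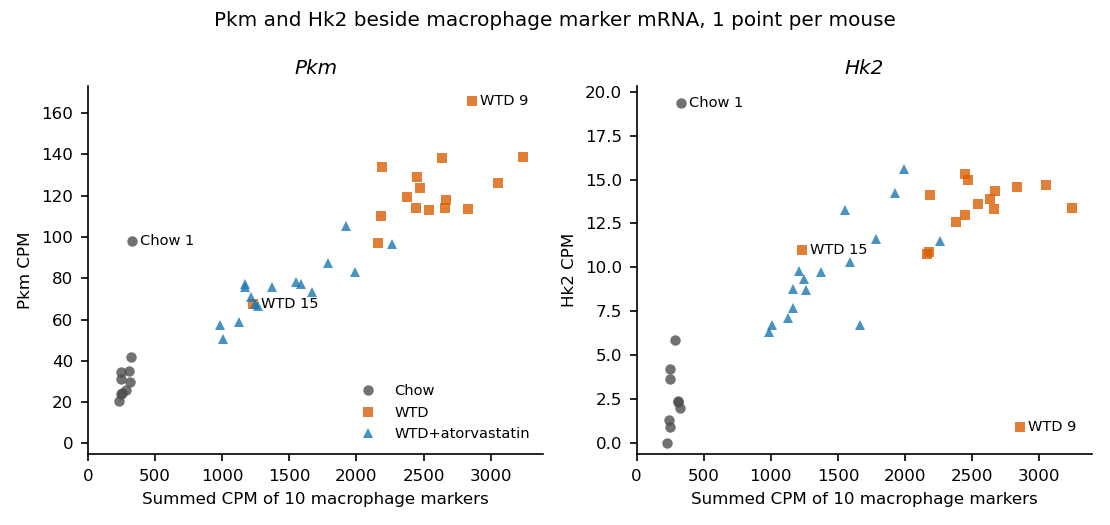
The level of Pkm (left) and Hk2 (right) in CPM is plotted against the summed CPM of 10 macrophage markers, with 1 point per mouse and shapes for the groups. WTD 15 lies among the treated mice for Pkm, at 67.6 CPM and 1231 CPM of markers, and Chow 1 lies above the other chow-fed mice for both genes at 330.1 CPM of markers.

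The other genes of glucose metabolism were described from lists written with earlier results of these data known. Of 21 further gluconeogenic enzymes and carriers tested, 13 were lower and 2 higher on WTD (16% and 17.5% of all tested genes). Their median log2 fold change was -0.38. The pyruvate carrier subunit Mpc2 fell by 0.87 (SE 0.10, edgeR adjusted p = 1.13e-10), alanine aminotransferase (Gpt) fell by 0.66 (SE 0.10, edgeR adjusted p = 3.15e-07) and the mitochondrial aspartate aminotransferase Got2 fell by 0.43 (SE 0.08, edgeR adjusted p = 2.26e-05). The 2 higher genes were paralogs of the hepatic enzymes, the mitochondrial Pck2 (log2 fold change 0.95, SE 0.26, edgeR adjusted p = 0.00216) and the ubiquitous G6pc3 (0.93, SE 0.30, edgeR adjusted p = 0.00905). Their levels stayed far below those of Pck1 and G6pc, with Pck2 at 2.79 ± 0.577 CPM per kb on WTD (SD, n = 16) beside 264 ± 60.3 for Pck1. The call of G6pc3 was close to the threshold, and its level ranged from 0 to 11.8 CPM on chow and from 10.3 to 24.8 CPM on WTD. With atorvastatin 5 of the 21 were higher than on WTD (4.84% of all tested genes). Among them were Got2 and the glucose 6-phosphate carrier Slc37a4 (log2 fold change 0.40, SE 0.10, edgeR adjusted p = 0.00404). The median of the 21 was 0.19. By edgeR 0 were lower, 1 was lower at an unadjusted p under 0.05, and DESeq2 called 1 lower.

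Of 22 further glycolytic enzymes tested, 9 were higher and 5 lower on WTD (17.5% and 16% of all tested genes). Their median log2 fold change was 0.37. Beside Hk1 and Hk3 the higher ones included the phosphofructokinases Pfkp, of platelets and other cells (1.16, SE 0.14, edgeR adjusted p = 1.78e-09), and Pfkl, of liver (0.56, SE 0.07, edgeR adjusted p = 5.36e-09). Pfkl fell by 0.32 with atorvastatin (SE 0.06, edgeR adjusted p = 0.000260). The median of the list with atorvastatin was -0.06. Among 17 genes that set fructose 2,6-bisphosphate and pyruvate dehydrogenase activity, 3 were higher and 2 lower on WTD, shares close to or below the 17.5% and 16% of all tested genes. Pfkfb4 was higher by 2.02 (SE 0.20, edgeR adjusted p = 3.75e-12) and Pfkfb3 by 1.28 (SE 0.17, edgeR adjusted p = 8.88e-09). Both are bifunctional enzymes best known outside the hepatocyte. Pfkfb1, the hepatic form, had a log2 fold change of -0.43 (SE 0.15, edgeR adjusted p = 0.0147), not called. Pdk4, which blocks pyruvate oxidation in fasting, had one of -0.74 (SE 0.29, edgeR adjusted p = 0.0367), not called.

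Fructose enters through Khk and reaches the triose pool below the steps that Gckr and phosphofructokinase control. Khk, ketohexokinase, averaged 484 CPM on chow, 492 CPM on WTD and 613 CPM with atorvastatin. It was called in neither comparison (edgeR adjusted p = 0.901 on WTD and 0.0540 with atorvastatin). Of the 7 genes of fructose entry, 1 was higher and 2 were lower on WTD (17.5% and 16% of all tested genes). With atorvastatin 4 were higher (4.84% of all tested genes), with a median log2 fold change of 0.36. Triokinase (Tkfc) was among these 4 (0.49, SE 0.13, edgeR adjusted p = 0.00888). Of the 7, edgeR called 0 lower with atorvastatin, with 1 lower at an unadjusted edgeR p under 0.05, and DESeq2 called 1 lower. Sorbitol dehydrogenase (Sord), which makes fructose from sorbitol, fell by 0.63 on WTD (SE 0.09, edgeR adjusted p = 1.73e-07) and was higher by 0.32 with atorvastatin (SE 0.08, edgeR adjusted p = 0.00569).

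Of 28 regulators of glucose production, 11 were lower and 4 higher on WTD (16% and 17.5% of all tested genes), with a median log2 fold change of -0.16. Mlxipl, which encodes ChREBP, fell by 1.04 (SE 0.13, edgeR adjusted p = 3.70e-09), while its textbook target Pklr was higher. With atorvastatin Mlxipl was higher than on WTD by 0.56 (SE 0.12, edgeR adjusted p = 0.000690). Txnip, another known ChREBP target, had a log2 fold change of 0.28 on WTD (SE 0.10, edgeR adjusted p = 0.0155), not called. The glucagon receptor gene Gcgr fell by 0.73 (SE 0.08, edgeR adjusted p = 1.60e-10), the insulin signalling adaptor Irs2 fell by 0.68 (SE 0.17, edgeR adjusted p = 0.000718) and the fasting-induced factor Creb3l3 fell by 0.75 (SE 0.11, edgeR adjusted p = 1.18e-07). Foxo1, a factor that insulin inactivates, was higher by 0.38 (SE 0.10, edgeR adjusted p = 0.00223). The coactivator Ppargc1a and the insulin-repressed gene Igfbp1 were not called on WTD, with log2 fold changes of -0.19 (SE 0.23) and -0.17 (SE 0.30, edgeR adjusted p = 0.526 and 0.679). With atorvastatin 4 regulators were higher than on WTD (4.84% of all tested genes), Hnf4a, Mlxipl and Klf15 among them. By edgeR and DESeq2 0 regulators were lower, with 1 lower at an unadjusted edgeR p under 0.05.

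**Figure D5:**
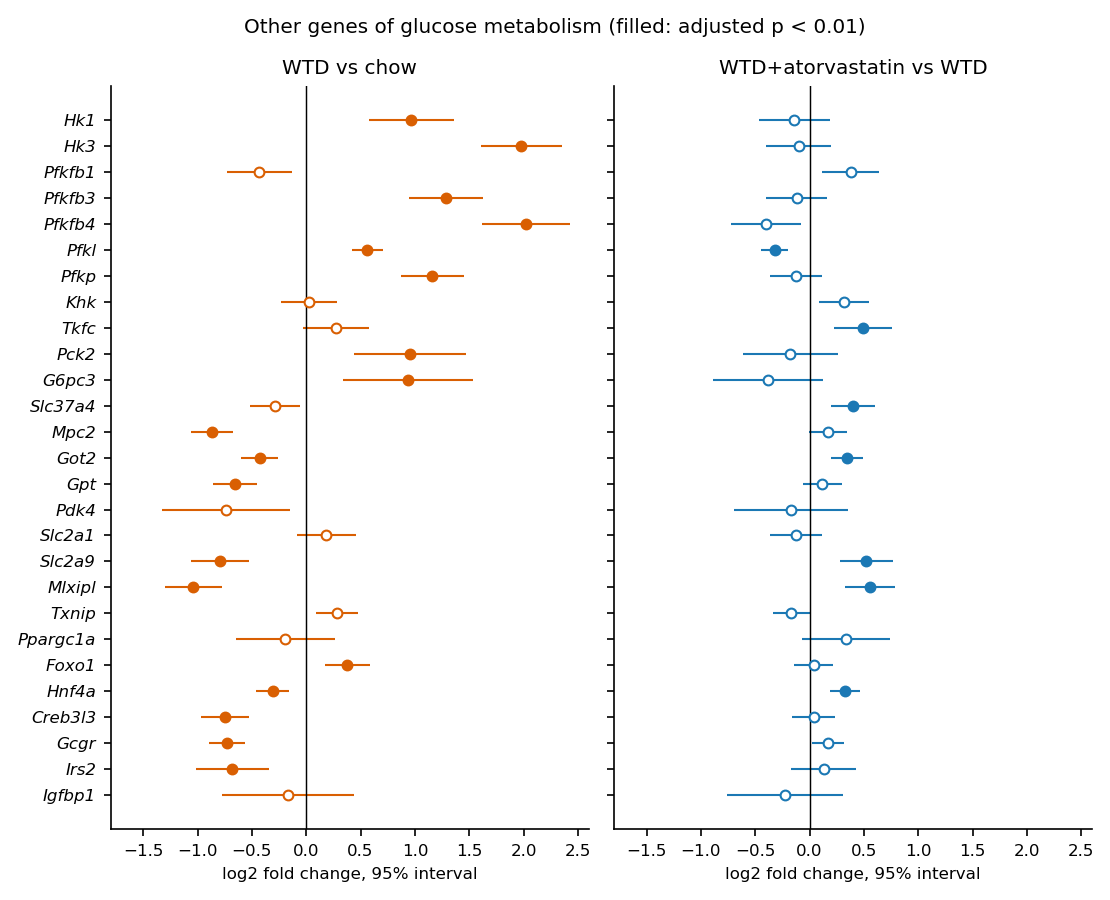
Log2 fold changes with 95% confidence intervals of other genes of glucose metabolism are plotted for WTD against chow (left) and atorvastatin against WTD (right), with filled points for an edgeR adjusted p under 0.01. Hk3 and Pfkfb4 lie near 2 on WTD, and Mlxipl goes from -1.04 on WTD to 0.56 with atorvastatin.

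In 16 genes of glycogen metabolism, 5 were higher and 5 lower on WTD (17.5% and 16% of all tested genes), and 5 were higher with atorvastatin (4.84%). Brain glycogen phosphorylase (Pygb) was higher on WTD by 1.61 (SE 0.16, edgeR adjusted p = 3.07e-12), while the liver form Pygl was not called (0.07, SE 0.11, edgeR adjusted p = 0.645) and was higher with atorvastatin by 0.45 (SE 0.09, edgeR adjusted p = 0.000615). Ppp1r3c, a glycogen-targeting phosphatase subunit, fell by 1.19 on WTD (SE 0.16, edgeR adjusted p = 3.93e-08). In the pentose phosphate pathway 3 of 8 genes were higher and 2 lower on WTD (17.5% and 16% of all tested genes). G6pdx, which opens the oxidative branch, was higher by 2.04 (SE 0.26, edgeR adjusted p = 6.27e-09), and Pgd, its next oxidative enzyme, by 0.92 (SE 0.14, edgeR adjusted p = 1.86e-07). In the comparison of atorvastatin with WTD edgeR and DESeq2 called 0 of the 8, and 2 were higher at an unadjusted p under 0.05. Among 8 further glucose and fructose transporters, 1 was higher and 1 lower on WTD (17.5% and 16% of all tested genes). With atorvastatin 1 was higher (4.84% of all tested genes). Slc2a6, a transporter of myeloid cells, was higher on WTD (2.04, SE 0.66, edgeR adjusted p = 0.00921). Its level was low, from 0 to 3.33 CPM on chow and from 1.36 to 14.3 CPM on WTD, and its call was close to the threshold. Slc2a9 was lower on WTD (-0.79, SE 0.13, edgeR adjusted p = 2.74e-06) and higher with atorvastatin (0.52, SE 0.12, edgeR adjusted p = 0.00182). Slc2a1, GLUT1, was not called, with means of 16.9, 19.2 and 17.6 CPM.

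Mice fed alike also differed together in several of the 9 genes. Over the 36 pairs of genes in each of the 3 groups, 14 Pearson correlations of log2 CPM passed a Benjamini-Hochberg adjusted permutation p of 0.05, 7 on WTD, 7 with atorvastatin and 0 on chow, where 3 had an unadjusted permutation p under 0.05. Of the 14, 13 were positive. The same r passes less easily on chow, with 10 mice, than in the groups of 16. Fbp1 and Pklr had r = 0.81 on WTD (rho = 0.79, adjusted permutation p = 0.00972 and 0.0234, n = 16) and r = 0.73 with atorvastatin (rho = 0.78, adjusted permutation p = 0.0243 and 0.0234, n = 16). On chow they had r = -0.08 (rho = 0.10, adjusted permutation p = 0.929 and 0.922, n = 10). Of the 14, only Fbp1 with Pklr on WTD and with atorvastatin still passed when the 2 mice farthest from the median of the gene on the x axis were left out, with r = 0.81 and 0.75. The negative one was Gckr with Pkm among treated mice, with r = -0.68 (rho = -0.73, adjusted permutation p = 0.0324 and 0.0461, n = 16) and r = -0.67 without 2 mice (adjusted permutation p = 0.109). Pkm and Hk2 had r = 0.78 in treated mice (rho = 0.83, adjusted permutation p = 0.0119 and 0.0140, n = 16) and r = 0.70 without 2 mice (adjusted permutation p = 0.0958). The other groups did not show this. The pair had r = -0.37 on WTD (rho = 0.13) and r = 0.60 on chow (rho = 0.18), or -0.65 on chow without 2 mice. Neither group passed (adjusted permutation p of r = 0.292 and 0.275). Pck1 was in none of the 14 pairs. Levels in one mouse share its library and its mix of cells, and their part in these relations was not tested.

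Over the whole table the genes most like each of the 9, by Pearson r of log2 CPM after each group's mean was subtracted (42 mice, mean count of at least 100), were the following. Me1 (r = 0.90), malic enzyme, and Khk (0.89) were nearest to Pklr. Mlxipl (0.85) was nearest to Gckr, with r within groups of 0.70 on chow, 0.76 on WTD and 0.94 with atorvastatin. Atp5a1 (0.86) and Aldh7a1 (0.84) were nearest to Fbp1, and Miga2 (0.81) and Faah (0.80) to Pcx. Pank1 (0.76) was nearest to Slc2a2. For G6pc they were the tubulins Tubb2a (0.72) and Tubb4b (0.71), with r of Tubb4b of only 0.04 within chow. Pck1 had no gene above Slc25a25 (0.62), followed by Slc38a2 (0.46). Tpm1 (0.82) and Aldoa (0.74) were nearest to Pkm, where r of Tpm1 was 0.96 on chow and 0.44 on WTD, and both genes are abundant in muscle, which Chow 1 held. Cep295 (0.84) and Arid5a (0.83) were nearest to Hk2, with r of 0.95 and 0.87 on WTD but 0.50 and -0.01 among treated mice. Chow 2 and WTD 9, with the lowest Hk2 of their groups, are libraries with many weak genes missing. The part of these libraries in the likeness to Hk2 was not tested. All r of this paragraph are descriptions over the same libraries, without a test.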

How the data were processed

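Liver RNA of 42 mice was measured as strand-specific, polyadenylated bulk RNA-seq, 1 library per mouse. The authors aligned reads with STAR 2.5 to GRCm38 and deposited raw counts per gene made with HTSeq 0.6.1p1; its strand setting is not given in the sources used here. The table equals the 42 single tables, and lines that name no gene (2.28% without a feature, 5.95% ambiguous and 4.68% not unique on average) were left out. Symbols, positions and exon lengths came from GENCODE vM21, promoters from RefSeq.

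Counts were filtered with filterByExpr (minimum count 10), TMM-scaled and tested with edgeR 4.0.16 (quasi-likelihood, robust, all mice, 3 groups, no covariate) in R 4.3.3. P values were adjusted by Benjamini-Hochberg over 15574 genes and called under 0.01. P values measure the spread between mice. In simulated data of 15292 genes, 112 of 200 genes changed by 1 log2 between WTD and chow were called, with 1 unchanged gene called. Correlations used 100000 permutations. The number of counts limits precision for Hk2 only, and its floor of 3 counts covers counting error alone.

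The 9 genes, the lists and the markers were chosen with earlier results of these data known. Named are the 9 genes, 20 partners, the 2 genes with the smallest p per list and comparison, and the 2 genes most like each of the 9, of which some are not reported here. Klf15, Pgam2, Acta1 and Itgam were named after their values were seen. Alternatives were DESeq2 1.42.0, limma-voom (limma 3.58.1), other normalizations, filters, thresholds and samples, a clock covariate, and each mouse left out.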

Additional observations from a re-analysis of the deposited data

Results flagged for a closer look

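Single outlying mice were looked for in the chow-fed group only (Dixon's test at 95%, n = 10), and the groups of 16 were not tested. There 5 of 29 genes had a mouse far from the others, where chance gives about 1 in 20. Pkm was 98.2 CPM in Chow 1 beside 41.9 CPM in the next mouse, Hk2 was 19.3 CPM there beside 5.88 CPM, and Fbp2, the fructose-1,6-bisphosphatase of muscle, was 1.91 CPM there beside 0.861 CPM. These 3 flags fall on the library with 2709 CPM of skeletal muscle markers, whose part in them was not tested. Pck2 was 26.6 CPM in Chow 5 beside 14.2 CPM in the next mouse. Ppargc1a was 17.4 CPM in Chow 6 beside 10.8 CPM. Chow 5 and Chow 6 are among the libraries in which over 20% of the weakly expressed genes had no count.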

How the results depend on the processing

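Over the alternatives, no called member reversed its direction, and the number of called members kept within 1.5 times except as follows. With an added absolute log2 fold change of at least 1, 3 members were called on WTD and 0 with atorvastatin against WTD. Without the 8 libraries that missed weakly expressed genes, 2 were called with atorvastatin against WTD. Against chow, limma-voom called 5 and an adjusted p under 0.05 gave 6. Leaving out each mouse in turn gave 6 to 7, 4 to 6 and 3 to 4 calls in the 3 comparisons. Without the 2 farthest mice 2 of the 14 correlated pairs passed. With Chow 1 and WTD 15 left out together, chosen after seeing the data, 6, 6 and 4 members were called. Sign changes of differences that were called in neither setting were not counted as reversals. Over all tested genes, 68.2% of the calls with atorvastatin were higher than on WTD by TMM, 54.9% with RLE and 50.9% with DESeq2, and the median of all genes moved by less than 0.1. The shares were 55.6% with at least 10 counts in every mouse and 52.8% when only the 2 groups entered. Calls over all genes in this comparison, 754 higher and 352 lower by TMM, were 1819 and 1299 with limma-voom, 1283 and 738 at an adjusted p under 0.05, 66 and 34 with the added fold threshold, and 487 and 288 without the 8 libraries. DESeq2 called 712 and 688, and the fold threshold left 1610 and 541 on WTD (from 2729 and 2495) and 1055 and 233 against chow (from 2219 and 1674). No paired analysis was possible because the labels do not pair mice across groups, and replicate numbers follow the order of deposit. Low counts limit Hk2, the other members having at least 318 counts per mouse. Its lowest values on chow and on WTD were in Chow 2 and WTD 9, with 17342797 and 17523307 gene counts. Other libraries had fewer gene counts, but in these 2 libraries 59.0% and 40.7% of the weakly expressed genes had no count.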
